A study of Mus musculus with 33 samples.

Results

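Imprinted growth genes were followed through birth in mouse lung and liver. The set held 10 named genes, Igf2, H19, Igf2r, Grb10, Cdkn1c, Dlk1, Meg3, Mest, Plagl1 and Peg3, and all 17 probe sets annotated to these symbols or their older names were taken, out of 8252 named genes on the array. The set was chosen by name, with earlier results of these arrays known: Igf2 and Peg3 were selected on their measured change between fetal and newborn organs, so that their birth values are given here as a description, with no test. H19 was read by a probe set annotated to both H19 and Mir675, a microRNA gene that lies within H19.

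Whole lung and liver RNA had been hybridized to 33 Affymetrix MGU74Av2 arrays, with 3 arrays in each of 11 groups. All animals were of 1 strain, written as C57/BL, C57/Black or BL/57 in the labels and as C57B/6J in the methods, and no group carried a mutation. The lung groups of room air (21% oxygen) were fetal lung of day 21 (F21) and newborn lung of 2 h, 6 h, 12 h and 24 h. For 10% oxygen there was F21 lung from dams that had spent 12 h in 10% oxygen, and newborn lung 2 h and 6 h after birth into it. Liver was from room air, of F21 and of newborns of 2 h and 6 h. Whether an array held RNA of 1 animal or of several is not given in the sources used here, so that the p-values measure the spread between arrays, which may in part be technical.

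An imprinted gene is expressed mainly from the copy inherited from 1 parent. Many such genes set fetal growth: paternally expressed Igf2 encodes the growth factor IGF-II, whereas maternally expressed Igf2r and Grb10 restrain it, the receptor by carrying IGF-II to the lysosome and the adaptor by damping insulin and IGF receptor signalling. They are often arranged in clusters under a shared imprinting control region. In the RefSeq annotation of GRCm38.p6 no protein-coding gene starts between Igf2 and H19 on chromosome 7 or between Dlk1 and Meg3 on chromosome 12, and Cdkn1c also lies on chromosome 7. Many of these genes are high in fetal organs and decline as growth slows after birth.

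Some sequences of the set are shown first, from RefSeq and its GRCm38.p6 build. No link between them and the results below was tested. H19 is the host of miR-675, and both mature strands are given 5′ to 3′ because the H19 probe set cannot tell the host from the microRNA's precursor. Capitals mark the seed, bases 2 to 8. The seeds of the strands differ.

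mmu-miR-675-5p (chr7:142577112-142577133, minus strand): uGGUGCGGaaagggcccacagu
mmu-miR-675-3p (chr7:142577078-142577099, minus strand): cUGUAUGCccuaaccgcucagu

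Promoter windows of 300 bases (250 before and 50 after a gene start) were held for 8 of the 10 genes. Windows of Igf2, Igf2r and Meg3, which hold a motif searched for here, are shown, with that of Peg3 beside them as 1 without. This choice was made after the matches were seen, and windows of Dlk1 and Plagl1 that also hold a motif are not shown. Capitals mark ACGTG on either strand, the core of the element that hypoxia-inducible factors bind, or TATAAA on either strand, the TATA box, with overlapping matches joined. Of all 32851 RefSeq windows, 19.6% hold ACGTG and 13.6% hold TATAAA.

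Igf2, 1 of 4 starts (chr7:142658755-142659054, minus strand): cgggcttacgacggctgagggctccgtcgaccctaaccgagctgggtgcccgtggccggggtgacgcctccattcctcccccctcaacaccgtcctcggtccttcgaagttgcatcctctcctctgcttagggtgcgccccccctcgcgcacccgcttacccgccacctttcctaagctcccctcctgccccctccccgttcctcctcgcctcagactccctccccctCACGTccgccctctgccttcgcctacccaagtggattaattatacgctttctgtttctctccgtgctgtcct
Igf2r (chr17:12769657-12769956, minus strand): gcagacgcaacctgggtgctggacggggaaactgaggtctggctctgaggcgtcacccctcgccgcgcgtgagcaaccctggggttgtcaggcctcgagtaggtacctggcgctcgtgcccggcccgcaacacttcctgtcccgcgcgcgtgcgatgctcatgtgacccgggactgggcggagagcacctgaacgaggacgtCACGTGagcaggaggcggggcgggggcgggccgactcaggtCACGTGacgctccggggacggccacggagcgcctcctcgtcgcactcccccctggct
Meg3, 1 of 2 starts (chr12:109540746-109541045, plus strand): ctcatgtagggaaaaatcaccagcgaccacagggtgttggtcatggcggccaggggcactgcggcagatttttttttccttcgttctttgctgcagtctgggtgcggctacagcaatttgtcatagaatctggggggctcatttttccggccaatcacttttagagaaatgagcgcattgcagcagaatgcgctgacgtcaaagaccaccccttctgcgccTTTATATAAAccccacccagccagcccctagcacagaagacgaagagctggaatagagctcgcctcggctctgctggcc
Peg3 (chr7:6730370-6730669, minus strand): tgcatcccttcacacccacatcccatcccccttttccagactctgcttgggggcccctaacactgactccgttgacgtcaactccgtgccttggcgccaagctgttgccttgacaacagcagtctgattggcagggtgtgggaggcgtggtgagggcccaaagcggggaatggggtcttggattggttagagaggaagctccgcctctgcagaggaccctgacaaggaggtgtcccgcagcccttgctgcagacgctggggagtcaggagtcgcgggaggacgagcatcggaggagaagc

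The Igf2 window shown held 1 ACGTG match and 24 CpG dinucleotides, against a median of 7 CpG over all windows. The 3 other Igf2 windows held neither motif and 7, 14 and 2 CpG. The Igf2r window held 2 stretches of CACGTG, which matches on both strands, and 34 CpG. The Meg3 window shown held 1 TATA stretch with 2 matches, and the other Meg3 window held neither motif. The Dlk1 window, not shown, held 1 ACGTG match, and the Plagl1 window, not shown, held 1 stretch of CACGTG. The Peg3 window, the 3 windows of Mest and the windows of Grb10 held neither motif. These matches describe letters in the windows and say nothing of binding in these tissues.

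The files bore out the organ labels. Sftpc, which encodes surfactant protein C of alveolar type II cells, read 17961 to 60597 on the lung arrays and 35.6 to 125.6 on the liver arrays, and Alb, serum albumin of hepatocytes, read 44095 to 56445 on the liver arrays. The ratio of the 3′ to the 5′ Gapdh probe set, a measure of RNA integrity, was 0.734 to 1.154 in room air lungs, 1.298 to 1.856 in livers and 1.212 to 9.402 in lungs of 10% oxygen. Each comparison of oxygen levels therefore also compares arrays that differ in this ratio. The lung ranges do not overlap, so that a fit with the ratio as a covariate extrapolates between oxygen levels. Such a fit cannot show that a difference is free of this ratio. One F21 lung of 10% oxygen (replicate 2) carried Alb at 2160 and a summed signal of 6 hepatocyte markers of 2835, the latter against 172.5 and 235.0 on the other arrays of its group and 118.4 to 135.2 in F21 lungs of room air.

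Values are MAS5 signals, scaled by the authors to a mean target of 100 on each array. A difference is on the log2 scale with signals under 10 set to 10, so that 1 is a doubling, and passed when the limma p-value adjusted over all tested probe sets was under 0.05. Of the 17 probe sets, 15 passed the filter on low signals in lung and in the fit of both organs, and 13 in liver. One Igf2 probe set (98622_at, 2.3 to 40.3) and 1 Grb10 probe set (95450_at, 1.4 to 51.0) were too dim to test in either organ, and both Plagl1 probe sets were too dim in liver. Since whole organs were used, fewer cells of a type and less RNA per cell cannot be told apart.

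Igf2 and its neighbour H19, a non-coding RNA, were both higher in F21 lungs of 10% oxygen than in those of room air. Igf2 (98623_g_at) read 2800.5, 2471.3 and 2678.1 in room air and 5161.8, 5539.6 and 8300.2 in 10% oxygen, without overlap. The difference was 1.23 (SE 0.21), 2.34-fold, with adjusted p = 0.000715. Igf2 was chosen by its birth change, for which the F21 arrays are the baseline. Its p-values between F21 groups may therefore not be independent of that choice. H19 read 2356.7, 2477.4 and 3871.1 in room air and 8199.5, 4041.7 and 6654.6 in 10% oxygen, again without overlap, for a difference of 1.10 (SE 0.32, adjusted p = 0.0341). Meg3, the non-coding RNA of the Dlk1 cluster, was the only other member past the threshold, by 1 of its 2 probe sets. Thus 3 of the 15 member probe sets tested, Igf2 among them, were higher and none was lower. Of all 6931 probe sets 7.13% passed in either direction and 2.51% passed as higher.

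Without the array that carried albumin the Igf2 difference was 1.31 (adjusted p = 0.00169) and the H19 difference 1.39 (adjusted p = 0.0175). Igf2 passed whichever of the 6 arrays was left out, at 1.01 to 1.36, whereas H19 lost its call without 4 of the 6 (room air replicates 1 and 2, 10% oxygen replicates 1 and 3), at 0.88 to 1.03, and also with quantile normalization, without the filter and in a fit of these groups alone. With the Gapdh ratio as a covariate Igf2 differed by 0.96 (adjusted p = 0.0481) and H19 by 1.60 (adjusted p = 0.0311). The summed signal of 8 of 9 mesenchymal markers was 13139 to 15500 in F21 lungs of room air and 16218 to 21221 in those of 10% oxygen. Most of it was Eln, elastin, with means of 9669.5 and 13293.6, while Postn (371.3 and 227.3) and Pdgfra (326.5 and 286.2) had lower means in 10% oxygen, and Lum lay under the floor on 1 or more arrays of 10% oxygen. Its part in these results was not tested.

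After birth the Igf2 signal was lower than in the F21 lungs of the same oxygen level. In room air it read 1515.2, 1656.3 and 1448.7 at 2 h and 1714.3, 2159.8 and 1937.1 at 6 h, all below the F21 lungs. At 12 h it read 2685.1, 1492.6 and 2079.2 and at 24 h 2712.5, 2120.6 and 2052.8, and here the groups overlapped with F21. The differences from F21, given as a description, were -0.78, -0.46, -0.38 and -0.22. In 10% oxygen Igf2 read 2344.5, 2742.8 and 2915.3 at 2 h and 1735.6, 1872.3 and 2261.2 at 6 h, for differences of -1.22 and -1.67 from its own F21 lungs. Against F21 lungs of room air they differed by 0.01 at 2 h and -0.44 at 6 h.

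H19 was tested after birth and fell at 2 h in both oxygen levels. In room air it read 1480.8, 1229.8 and 1209 at 2 h, a change of -1.12 (SE 0.32, adjusted p = 0.0431), and was the only one of the 11 other probe sets tested to pass, where 4.24% of all probe sets did. This call was lost without any 1 of the 6 arrays, with quantile normalization and without the filter. It was also not made by the methods' t-test at an unadjusted p under 0.01. At 2 h the median change of the brightest 10% of probe sets, to which H19 belongs, was -0.32, and the summed signal of 4 of 6 lung epithelial markers was 27219 to 31966, against 47864 to 62083 at F21. Sftpc made up this gap, with means of 47453.1 at F21 and 18767.0 at 2 h, while Sftpb stood at 4576.9 and 4318.1 and Scgb1a1, a secretory product of club cells, at 2090.9 and 5756.0. The summed erythroid markers (4 of 7) were 14912 to 19381 at 2 h, against 31552 to 36938, nearly all of it Hba-a1 of alpha globin (means of 33604.5 at F21 and 16243.0 at 2 h), whereas Slc4a1 stood at 67.8 and 97.0. Their part in the H19 value was not tested.

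At 6 h H19 read 1740.8, 2150.7 and 1499.8, at 12 h 2021.7, 1059.3 and 1067.8, and at 24 h 1796.5, 788.9 and 1340.9. All these arrays lay below the F21 lungs, but the differences of -0.67, -1.10 and -1.19 had adjusted p of 0.406, 0.0936 and 0.082. In 10% oxygen H19 read 2489.7, 1621.1 and 2652 at 2 h and 2369.7, 1387.5 and 1336 at 6 h, below every F21 lung of 10% oxygen. It fell by 1.45 (SE 0.32, adjusted p = 0.0137) at 2 h and fell by 1.88 (SE 0.32, adjusted p = 0.00085) at 6 h. Without F21 replicate 3 or 2 h replicate 2 the 2 h call was lost. It was also lost with array weights and in the methods' t-test, even before adjustment. The 6 h call was lost in that t-test after adjustment. Against F21 lungs of room air the same newborn groups differed by -0.36 and -0.79, neither past the threshold.

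At 2 h the oxygen levels still differed in Igf2, which was 0.79 (SE 0.21, adjusted p = 0.011) higher in 10% oxygen, without overlap. This comparison and that at 6 h were added after the values were seen. The newborn arrays also enter the birth change by which Igf2 was chosen. Its p-value here may therefore not be independent of that choice. With the Gapdh ratio as a covariate the 2 h difference was 0.55 and did not pass (adjusted p = 0.145). By 6 h the difference was 0.01 with a 95% interval of -0.41 to 0.44. H19 differed by 0.76 (adjusted p = 0.102) at 2 h and by -0.12 (interval -0.77 to 0.54) at 6 h.

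**Figure D1:**
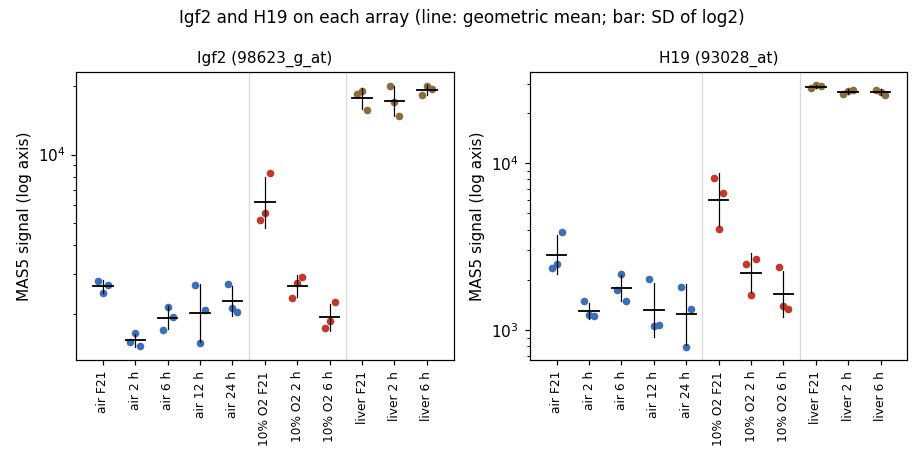
MAS5 signal (log axis) of Igf2 and H19 on each array of the 11 groups, with the geometric mean (line) and the SD of log2 (bar). The F21 lungs of 10% oxygen (red) lie above the other lung groups, at 5161.8 to 8300.2 for Igf2, and all livers (brown) lie above all lungs.

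Liver held far more of both transcripts than lung. In F21 liver Igf2 read 18334, 18975.3 and 15677.7 and H19 28224, 29259.7 and 28933.4. The difference of room air lung from liver was -2.73 (SE 0.19, adjusted p = 5.66e-13) for Igf2 and -3.35 (SE 0.28, adjusted p = 4.3e-11) for H19, so that liver was 6.65-fold and 10.2-fold higher. In order of mean Igf2 signal the livers came first, overlapping each other, then F21 lungs of 10% oxygen, apart from the groups on either side. The remaining lung groups overlapped their neighbours in the order except room air at 2 h, the lowest. After birth the 2 h livers held Igf2 at 14808.5 to 19956.5 and the 6 h livers at 18176.3 to 19974.9, which overlapped with F21. The H19 arrays of both ages lay just below the F21 livers, and the H19 change was -0.10 (95% interval -0.30 to 0.10) at 2 h and -0.11 (interval -0.31 to 0.09) at 6 h. At 2 h the H19 change in lung differed from that in liver by -1.02 (adjusted p = 0.263).

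Over the 24 lung arrays Igf2 and H19 had a Pearson r of 0.82. Outside the set, the genes closest to Igf2 were Trim28 (0.88), Cdk1 (0.87), Npm1 (0.86) and Pabpc1 (0.86), and those closest to H19 were Cdc20, Tmpo and Gadd45g (0.84 each) and Cdk1 (0.83). Among the members Cdkn1c followed both at 0.71. These values describe 24 arrays that share their groups and their scaling.

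Igf2r, which clears IGF-II, read 424.2, 396 and 563.4 in F21 lungs of room air and 275.4, 262.1 and 291.2 in those of 10% oxygen. These groups did not overlap, but the difference of -0.72 had an adjusted p of 0.155. At 2 h it read 525.8, 596.4 and 357.4 in room air and 288.1, 203 and 306.7 in 10% oxygen, a difference of -0.88 (SE 0.30, adjusted p = 0.0462). That call was lost without any of 5 of the 6 arrays, the exception being room air replicate 3, and with quantile normalization or no filter. In room air the 6 h lungs held 183 to 301.6, the 12 h lungs 230.9 to 341.5 and the 24 h lungs 241.2 to 349.8, below all F21 lungs, with adjusted p from 0.167 to 0.486. F21 liver held 143.9, 113 and 57.4, so that lung was higher by 2.22 (SE 0.33, adjusted p = 4.08e-06), opposite in direction to its ligand.

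Grb10, an adaptor that binds the insulin and IGF-I receptors, was dim. Its 93690_at probe set read 167.8 to 232.9 in F21 lungs of room air. The ranges after birth were 66.1 to 88 (2 h), 115.7 to 139.8 (6 h), 112.4 to 144.6 (12 h) and 83 to 115.1 (24 h). All newborn groups lay below F21, and the 2 h difference of -1.28 had an adjusted p of 0.198. In 10% oxygen it was 52.8 to 133 at F21, where the difference from room air of -1.22 (adjusted p = 0.176) turned to 0.11 with the Gapdh ratio as a covariate. The other tested probe set, 93691_s_at, spanned 157.3 to 364.8 in F21 lungs of room air, 76.3 to 143.2 at 2 h and 4.0 to 204.4 in F21 lungs of 10% oxygen. Liver held more by 93690_at, 233.2 to 271.4 at F21 and 114.8 to 195.5 at 2 h, where the change of -0.76 had an adjusted p of 0.157. Neither tested Grb10 probe set passed in any comparison with the settings used here. The room air 2 h difference of 93690_at did pass with array weights and in a fit of these groups alone. It also passed in the methods' t-test at its unadjusted p under 0.01. With array weights the 6 h difference of 93690_at between oxygen levels passed as well.

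Cdkn1c encodes p57, an inhibitor of cyclin dependent kinases that slows the cell cycle. In room air lung it read 550.2, 553.8 and 582.7 at F21, 461.2, 458.5 and 339.7 at 2 h, 375.6, 397.8 and 295.4 at 6 h, 279.9, 216.2 and 181.3 at 12 h, and 373.8, 285.2 and 286 at 24 h. Every newborn array lay below every F21 array. It fell by 1.34 (SE 0.26, 2.53-fold, adjusted p = 0.00674) at 12 h, and did not pass at 2 h (-0.44), 6 h (-0.67) or 24 h (-0.85, adjusted p = 0.144). The 12 h call was lost without replicate 3 at 12 h. In 10% oxygen it read 647.1, 1008.9 and 1440.1 at F21 and 401.1, 516.5 and 676.3 at 6 h, and fell by 0.92 (adjusted p = 0.0336) between groups that overlapped. That call was lost without any of 4 of the 6 arrays, F21 replicates 2 and 3 and 6 h replicates 1 and 2, and in a fit of these groups alone. Against F21 lungs of room air the 6 h difference was -0.11.

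At F21 Cdkn1c was higher in 10% oxygen than in room air by 0.80 without overlap, with adjusted p = 0.0596. With quantile normalization the difference was 0.90 (adjusted p = 0.0355), and with the Gapdh ratio as a covariate 0.04. F21 lung of room air exceeded liver (233.9, 279 and 253.3) by 1.14 (adjusted p = 0.000908). Newborn livers held 107.3 to 194.4 (2 h) and 130.2 to 176.5 (6 h), below F21 on all arrays, with adjusted p of 0.203 and 0.133.

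Mest, a paternally expressed gene for a hydrolase-like protein of mesodermal tissues, changed the most of the tested members in room air lung at 6 h and 12 h. It read 237.2, 303.8 and 295.8 at F21 and 501, 284.6 and 328.5 at 2 h, which overlapped. At 6 h it read 79.6, 97.6 and 69.5 and at 12 h 55.5, 112.8 and 76.7, below every array of F21 and 2 h. It fell by 1.77 (SE 0.34, 3.41-fold, adjusted p = 0.00872) at 6 h and fell by 1.82 (SE 0.34, 3.54-fold, adjusted p = 0.0049) at 12 h. At 24 h it read 83.1, 170.9 and 110.7, a difference of -1.25 (adjusted p = 0.0886).

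In 10% oxygen Mest was already low at 2 h, at 143.4, 133.2 and 85, where room air lungs stood at 284.6 to 501. The difference was -1.62 (SE 0.34, adjusted p = 0.00222), and it passed without any 1 of the 6 arrays. With the Gapdh ratio as a covariate, a fit that extrapolates between oxygen levels, it was -2.20 (adjusted p = 0.00117). Against its own F21 lungs (158.5, 286.7 and 343.6) the 2 h difference was -1.09 (adjusted p = 0.0874). By 6 h the lungs of 10% oxygen read 111.9, 128.7 and 166.3, above all room air lungs of that age, with a difference of 0.72 (adjusted p = 0.211). The difference between the 2 h changes of the oxygen levels was 1.47 (SE 0.48, adjusted p = 0.201) and did not pass. F21 liver read 74.3, 76.2 and 128.5, and lung exceeded it by 1.62 (adjusted p = 0.000403).

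**Figure D2:**
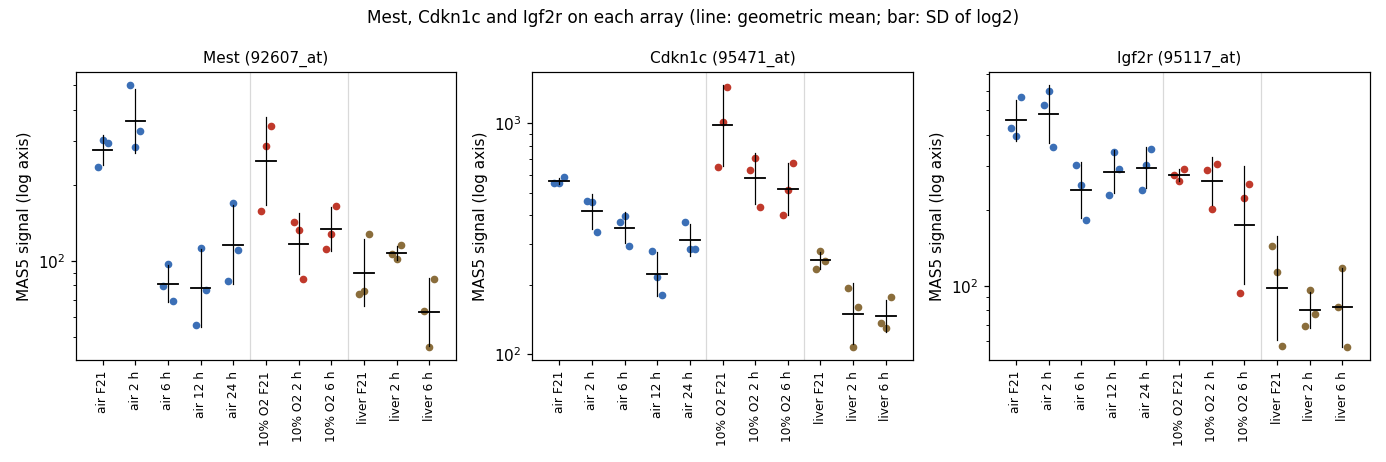
MAS5 signal (log axis) of Mest, Cdkn1c and Igf2r on each array, with the geometric mean (line) and the SD of log2 (bar). Mest in room air lung (blue) is at 284.6 to 501 at 2 h and at 69.5 to 97.6 at 6 h, and the 2 h lungs of 10% oxygen (red) are at 85 to 143.4.

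Counted over the 8 genes other than Igf2 and Peg3, with 11 probe sets tested in lung, the room air falls were 1 at 2 h (H19), 1 at 6 h (Mest), 2 at 12 h (Mest and Cdkn1c) and 0 at 24 h, and none rose. Among all probe sets 1.02% passed at 6 h, 1.34% at 12 h and 0.577% at 24 h. At 24 h 6 of the 11 had an unadjusted limma p under 0.05, against 10.2% of all probe sets. The methods' t-test called 2 at its unadjusted threshold, against 2.22% of all, and 0 after adjustment. The median difference of these probe sets was 0.02 at 2 h, -0.67 at 6 h, -0.60 at 12 h and -0.91 at 24 h, where that of all tested probe sets was 0.02, -0.04, -0.02 and -0.04. In 10% oxygen 1 fell at 2 h (H19) and 2 at 6 h (H19 and Cdkn1c), against 2.65% and 6.31% of all probe sets. The medians were -0.52 and -0.66, where all tested probe sets stood at -0.02. All lung arrays shared 1 estimate of spread per probe set. Within groups the arrays of 10% oxygen had r of 0.72 to 0.81 and those of room air 0.85 to 0.92. Adjusted p-values within 10% oxygen may therefore be too small. With array weights 55 of all 6931 probe sets passed at 2 h and 101 at 6 h, against 184 and 437 without. In fits of the compared groups alone 51 and 85 passed.

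Dlk1 and Meg3 are expressed from opposite parental copies of a shared cluster. Dlk1, a membrane protein of the Notch ligand family found in immature cells, was high in lung. In room air it read 5162.1, 4925.7 and 3585.9 before birth, and the 2 h and 6 h lungs spanned 4299.5 to 4786.9 and 3071.6 to 4300.8. At 12 h it read 5369.4, 2601.7 and 3202.9 and at 24 h 5002.5, 691.1 and 1924.2, a wide spread. The 24 h difference of -1.26 (adjusted p = 0.155) was -0.54 without replicate 2. F21 lungs of 10% oxygen (4317.4 to 4944.7) differed from room air by 0.05, with an interval of -0.77 to 0.86.

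Meg3, a maternally expressed non-coding RNA, was higher in 10% oxygen by its 160172_at probe set. At F21 it read 1961.9, 2581.6 and 1072.2 in room air and 4761.4, 6247.7 and 2808.5 in 10% oxygen, a difference of 1.31 (SE 0.36, adjusted p = 0.0262). At 2 h it read 2186.1, 3114.7 and 1572.2 against 7425.6, 6609.6 and 7075.1, a difference of 1.67 (SE 0.36, 3.19-fold, adjusted p = 0.00267). At 6 h it read 2773.2, 2961 and 2804.4 against 6583.3, 5127.7 and 7244.1, a difference of 1.14 that did not pass (adjusted p = 0.0625). No array of room air reached those of 10% oxygen at the same age.

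The other Meg3 probe set did not share this. 160173_at read 955.9 to 1348.8 in room air and 1019.3 to 1765 in 10% oxygen at F21, and its differences were 0.25, 0.30 and 0.10 at F21, 2 h and 6 h. The F21 call of 160172_at was lost without any of 4 of the 6 arrays (room air replicates 1 and 3, 10% oxygen replicates 1 and 2) and in a fit of these groups alone, and with the Gapdh ratio as a covariate the difference was 1.42 (adjusted p = 0.125). The 2 h call held without any 1 of the 6 arrays. With that covariate, a fit that extrapolates between oxygen levels, the 2 h difference was 1.77 (adjusted p = 0.015). At 2 h the summed mesenchymal markers were 12317 to 12793 in room air and 23333 to 27565 in 10% oxygen. Eln made up this gap, with means of 8928.5 and 21714.3, whereas Pdgfra (333.6 and 181.1) and Postn (406.9 and 255.6) had lower means in 10% oxygen. Their part in the Meg3 value was not tested.

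**Figure D3:**
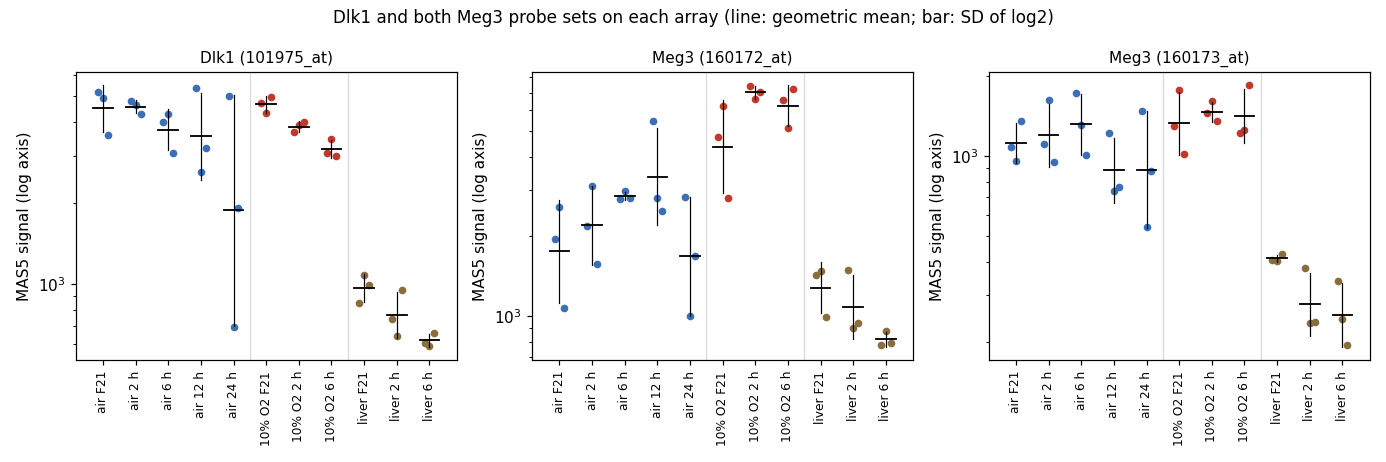
MAS5 signal (log axis) of Dlk1 and of both Meg3 probe sets on each array, with the geometric mean (line) and the SD of log2 (bar). By Meg3 160172_at the lungs of 10% oxygen (red) stand above those of room air (blue) at F21, 2 h and 6 h, whereas by 160173_at they overlap.

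In liver Dlk1 read 848.1, 1080.8 and 990.2 at F21 and 606, 590.8 and 659.2 at 6 h, without overlap (-0.65, adjusted p = 0.0739). Meg3 160172_at spanned 993.3 to 1483.4 before birth and 777.4 to 878.5 in the 6 h livers (-0.65, adjusted p = 0.139), and 160173_at gave -0.71. F21 lung exceeded liver by 2.22 (adjusted p = 1.1e-05) for Dlk1 and by 1.44 (adjusted p = 0.000267) for Meg3 160173_at, while 160172_at differed by 0.46 (adjusted p = 0.339). In liver 0 of the 9 probe sets of the other genes tested passed at 2 h or 6 h, where 0.913% and 1.84% of all probe sets did. In each comparison 4 of the 9 had an unadjusted limma p under 0.05, against 12.1% of all probe sets at 2 h and 13.4% at 6 h. The methods' t-test called 0 at 2 h and 2 at 6 h before adjustment, against 3.11% and 3.71% of all, and 0 after.

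Plagl1, a zinc finger transcription factor that regulates other imprinted genes, was dim and its probe sets disagreed. At 2 h 92502_at read 116.2, 71.4 and 72 in room air and 6.7, 46.2 and 38.5 in 10% oxygen, a difference of -1.69 (SE 0.48, adjusted p = 0.0176), while 92501_s_at differed by -0.51 (adjusted p = 0.508). The call was lost without room air replicate 1 (-1.46, adjusted p = 0.0921), without 10% oxygen replicate 1, which lay under the floor (adjusted p = 0.117), and in a fit of these groups alone. At F21 lung exceeded liver by 1.76 (adjusted p = 0.00945) with 92501_s_at, a call lost without F21 liver replicate 2, and by 0.23 with 92502_at. Both had passed the filter in lung and not in liver, which favours a higher reading in lung. In room air lung 92501_s_at spanned 69.7 to 94.8 at F21 and 33.8 to 43.0 at 24 h, where the difference of -1.06 had an adjusted p of 0.427.

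At 2 h 5 of the 15 member probe sets passed between oxygen levels, 2 higher in 10% oxygen (Igf2 and Meg3) and 3 lower (Mest, Igf2r and Plagl1), where 16.8% of all probe sets did. Igf2 is counted here though its 2 h arrays enter the birth change by which it was chosen. At 6 h 0 of 15 passed, against 5.80% of all probe sets, with 5 at an unadjusted limma p under 0.05, against 22.4% of all. The methods' t-test called 1 before adjustment, against 4.88% of all, and 0 after. The birth changes of the 8 genes other than Igf2 and Peg3 did not differ between oxygen levels past the threshold: 0 of 11 at 2 h, with 2 at an unadjusted limma p under 0.05, and 0 of 11 at 6 h, with 1. Among all probe sets 0.476% and 0.0144% passed, and 13.1% and 8.58% had an unadjusted p under 0.05.

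**Figure D4:**
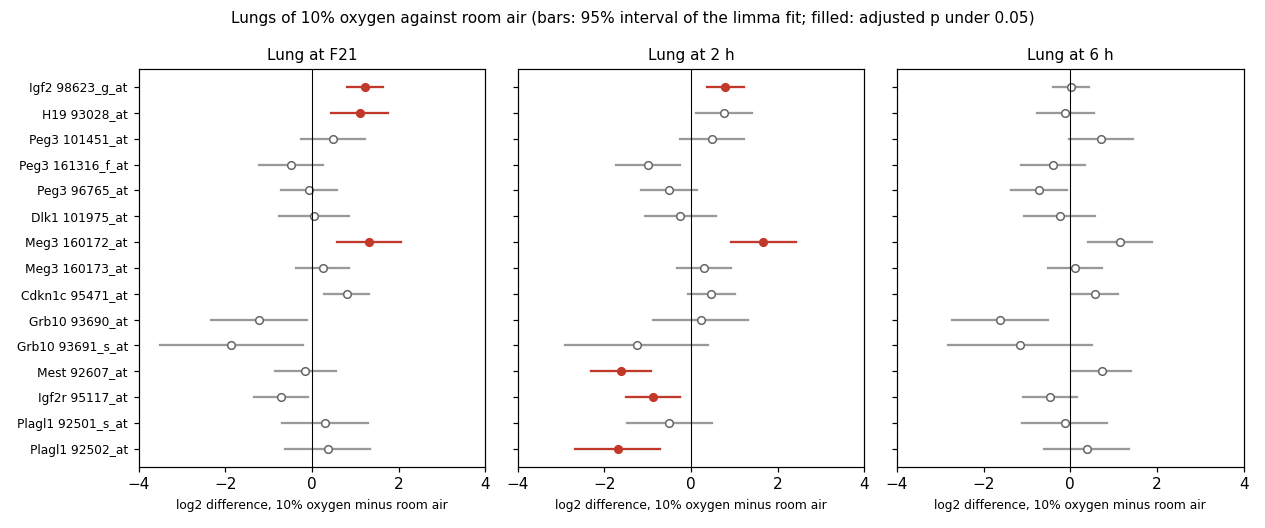
Log2 difference of lungs of 10% oxygen against room air for the 15 member probe sets tested, at F21, 2 h and 6 h, with 95% intervals of the limma fit and filled points where the adjusted p was under 0.05. Igf2 goes from 1.23 at F21 to 0.79 at 2 h and 0.01 at 6 h, and Meg3 160172_at stays above 1.

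Peg3, a paternally expressed zinc finger protein, ran the other way from Igf2 in room air lung, and its values after birth are a description. By its brightest probe set, 96765_at, room air lungs read 425.6, 403.2 and 777 at F21, 680.9, 502.7 and 756.8 at 2 h, 1553.4, 1103 and 1040.2 at 6 h, 1621.1, 934 and 1299.4 at 12 h, and 1114.3, 905.4 and 2222.4 at 24 h. From 6 h on every array lay above every F21 array. The differences from F21 were 0.32, 1.25, 1.29 and 1.36. In 10% oxygen it read 386.2, 552.4 and 548.4 at F21, 349.7, 644.6 and 391.2 at 2 h, and 924.8, 645.4 and 668.2 at 6 h, for differences of -0.14 and 0.59.

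In liver the higher Peg3 level was already present at 2 h. It read 404.7, 439.1 and 484.3 at F21, 1094.8, 1468.1 and 1842.4 at 2 h, and 1248.8, 1829.4 and 1009 at 6 h, 1.70 and 1.58 above F21. The second probe set, 101451_at, gave 1.99 and 2.00 in liver, and -0.36 and 0.61 in room air lung. The third, 161316_f_at, gave 0.20 and 0.27 in liver and 0.93 and 0.45 in room air lung. In room air lung at 12 h and 24 h 101451_at gave 0.15 and 0.57 and 161316_f_at 0.34 and 0.15, so that the higher level there rests on 96765_at. The liver pattern was shared by 2 of the 3 probe sets.

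Between oxygen levels none of the Peg3 probe sets passed. This contrast was not used to choose Peg3, though its arrays also enter the birth changes. The 96765_at probe set differed by -0.06 (interval -0.71 to 0.58) at F21, -0.52 at 2 h and -0.72 (adjusted p = 0.171) at 6 h. By 161316_f_at the 2 h lungs read 216.1, 163.7 and 265.8 in room air and 122.4, 132.3 and 74.5 in 10% oxygen, without overlap, for a difference of -0.99 (adjusted p = 0.061). It passed with a pseudocount of 16 (adjusted p = 0.0487), with the filter of the top 30% (0.0475), with the Gapdh ratio as a covariate (-1.68, adjusted p = 0.00807) and with array weights (adjusted p = 0.039). It did not pass with quantile normalization (0.0702), without a filter (0.0833) or with any single array left out. At F21 and 6 h it gave -0.48 and -0.39. Nor did 96765_at pass between F21 lung and liver (0.21, adjusted p = 0.665). In order of mean log2 signal the newborn livers and the room air lungs of 6 h to 24 h came first, overlapping each other. The next group, lungs of 10% oxygen at 6 h, lay below them except for room air at 24 h. There the lowest array, 905.4, lay under the highest of 10% oxygen at 6 h, 924.8. All lower groups overlapped their neighbours. Over the 24 lung arrays the genes closest to Peg3 were Anxa1 (r = 0.87), Vamp8 (0.85), Cstb (0.82) and Clic4 (0.81), and Peg3 against Igf2 gave -0.37.

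**Figure D5:**
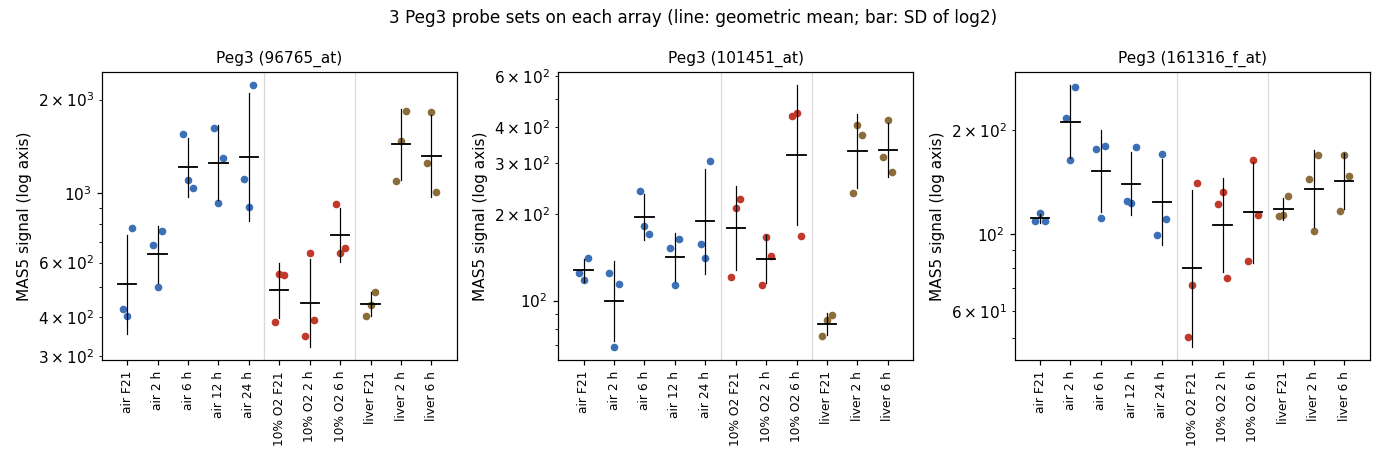
MAS5 signal (log axis) of the 3 Peg3 probe sets on each array, with the geometric mean (line) and the SD of log2 (bar). By 96765_at the room air lungs of 6 h to 24 h lie at 905.4 and above and those of F21 at 777 and below, and in liver (brown) the step from F21 to 2 h is seen with 96765_at and 101451_at.

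Between F21 lung of room air and F21 liver 8 of the 15 member probe sets passed, 6 higher in lung (Dlk1, Igf2r, Meg3 160173_at, Cdkn1c, Mest and Plagl1 92501_s_at) and 2 lower (Igf2 and H19), where 28.0% of all 7640 probe sets did. Plagl1 92501_s_at passed the filter in lung and not in liver, so its entry into this count favoured a higher reading in lung. The birth changes of the 8 genes other than Igf2 and Peg3 did not differ between lung and liver past the threshold, with 0 of 11 at either time, where 0.929% and 0.196% of all probe sets passed. By an unadjusted limma p under 0.05 the counts were 1 and 3, against 12.5% and 8.66% of all.

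Partners of IGF-II were compared over a list of 23 genes, 17 of them on the array and 14 tested in lung. At F21 3 were higher in 10% oxygen and 1 was lower, where 7.13% of all probe sets passed. Igf1r, the receptor that carries the growth signal of IGF-II, was higher by 1.38 (adjusted p = 0.000865), and Igfbp2, a binding protein, by 1.45 (adjusted p = 0.00775). Igfbp4 was higher by 0.87 with 1 probe set and differed by -0.59 with its other. Igf1 differed by -1.10 with its brightest probe set and by 1.31 with another, so that its direction is uncertain. The median over the list was 0.51, against -0.04 over all probe sets. At 2 h 4 were higher in 10% oxygen and none was lower, where 16.8% of all probe sets passed: Igfbp6 (1.27), Igfbp7 (1.80), Akt1 (0.84) and Akt2 (1.13). The 2 h median was 0.59, against -0.06.

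After birth in room air 2 of the 14 fell at 2 h and 2 rose at 6 h, against 4.24% and 1.02% of all probe sets. Igfbp6 fell from a mean signal of 919.0 to 467.1 and Igfbp7 fell by 1.58. The rises were of Igfbp3, which binds IGFs in serum, by 3.28 (adjusted p = 0.0212), and of Igf1r, by 0.96 (adjusted p = 0.044). The Igfbp3 rise started from a mean signal of 28.6 at F21, near the floor, and another probe set gave 2.47. At 12 h Igfbp3 and Igfbp4 rose, by 2.85 and 1.11, against 1.34% of all probe sets, and at 24 h 0 of 14 passed. In 10% oxygen 1 rose and 2 fell at 2 h, against 2.65% of all probe sets, and 2 rose and 1 fell at 6 h, against 6.31%. Igfbp2 fell by 1.55 at 2 h and fell by 1.72 at 6 h, and Igfbp6 rose by 0.94 and 1.05. Igfbp3 rose by 3.07 at 6 h, from a mean signal of 19.6 at F21 that was again near the floor. The 2 h change of Igfbp6 in room air minus that in 10% oxygen was -1.94 (adjusted p = 0.0147). None of the 10 list genes tested in liver passed after birth, against 0.913% of all probe sets at 2 h and 1.84% at 6 h. At F21 room air lung differed from liver by -8.96 in Igfbp1 and by -5.22 in Igfbp2, both of them liver products, and by 4.75 in Igfbp6. The lung mean of Igfbp1 was 18.6, near the floor, so that the size of its difference depends on the floor.

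Of 64 other imprinted genes 34 were on the array and 19 were tested in lung. H13, a signal peptide peptidase, rose in room air by 1.45 at 6 h (adjusted p = 0.00768), by 1.76 at 12 h (adjusted p = 0.00133) and by as much at 24 h (adjusted p = 0.00165) and was the only 1 of the 19 to pass at those times, against 1.02%, 1.34% and 0.577% of all probe sets. At 2 h Slc22a18 alone passed, higher by 1.67 (adjusted p = 0.0334), against 4.24% of all probe sets. In 10% oxygen 0 passed at 2 h and 2 fell at 6 h, against 2.65% and 6.31% of all probe sets. Gnas, the gene of the stimulatory G protein alpha subunit, fell by 0.87 and Sgce fell by 0.88. At F21 Gnas (0.90, adjusted p = 0.00801) and H13 (1.04) were higher in 10% oxygen and Kcnq1 differed by -1.27 (adjusted p = 0.0454), against 7.13% of all probe sets. At 2 h 6 of the 19 were higher in 10% oxygen and none was lower, against 16.8% of all probe sets, among them H13 (0.90), Gnas (0.67), Nap1l4 (0.97) and Nnat (1.66). The 2 h median of the list was 0.32, against -0.06 over all probe sets. The 6 h change of H13 in room air lung minus that in liver was 2.05 (adjusted p = 0.0065). In liver 0 of 19 passed at 2 h or at 6 h, against 0.913% and 1.84% of all probe sets.

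Kinase inhibitors and proliferation genes, the class to which Cdkn1c belongs, were 31 in the list, 26 of them tested in lung. In room air 3 fell at 2 h, with changes of -1.37 for Cdc20, -1.38 for Cdk1 and -1.29 for Ccne1, against 4.24% of all probe sets. At 6 h Cdkn1a, which encodes the inhibitor p21, rose by 2.14 and Ccnd3 fell by 1.09, against 1.02% of all probe sets. At 12 h 3 fell, Ccnb2, Mki67 and Stmn1, against 1.34%. Mki67 gave -2.90 with its brightest probe set, whose mean signal of 7.5 at 12 h lay under the floor, and -0.66 with another. In 10% oxygen 5 fell at 2 h, against 2.65% of all probe sets, and 8 fell and 1 rose at 6 h, against 6.31%. The median of the list was -0.71 and -0.86, against -0.02 over all probe sets at either time. At F21 Cdc20 and Cdk1 were higher in 10% oxygen, by 1.04 and 1.13, against 7.13% of all probe sets. At 2 h 3 were higher and 1 was lower, against 16.8%.

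Of 16 Notch ligands, receptors and targets, the family of Dlk1, 10 were on the array and 8 were tested in lung. Notch3 alone passed in room air at 2 h, higher by 0.90 (adjusted p = 0.0397), against 4.24% of all probe sets. Between oxygen levels at F21 Notch4 alone passed, 1.64 higher in 10% oxygen (adjusted p = 0.0355), against 7.13%. At 2 h Hes1, a Notch target, was 0.91 and Notch1 0.94 higher in 10% oxygen, while Notch3 differed by -0.79, which made 3 of 8 where 16.8% of all probe sets passed. Another Notch1 probe set differed by -1.42. The 2 h change of Notch3 in room air minus that in 10% oxygen was 1.55 (adjusted p = 0.0448). None passed in room air at 6 h, 12 h or 24 h, against 1.02%, 1.34% and 0.577% of all probe sets. In 10% oxygen none passed at 2 h or 6 h after birth, against 2.65% and 6.31%. Only 2 were tested in liver, and neither passed at 2 h or 6 h, against 0.913% and 1.84%.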

How the data were processed

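Whole lung and liver RNA was measured on 33 arrays. The deposited table held the authors' MAS5 signal, a linear intensity per probe set, with each chip scaled by the authors to a target intensity of 100. Without the 66 control probe sets, and with a floor of 10 on the signal, log2 values were compared. Tests covered probe sets that ranked in the top 40% on 3 or more arrays of the fit, 6931 in lung, 5693 in liver and 7640 over both organs. Groups were compared with limma 3.58.1 in R 4.3.3 (moderated variance with a trend, Benjamini-Hochberg adjusted p under 0.05), in a fit of lung (16 residual degrees of freedom), of liver (6) or of both (22). The methods' t-test used an unadjusted p under 0.01.

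Of all probe sets 10855 carry 1 gene symbol, 396 several and 1237 none. The members and gene lists were chosen with earlier results of these data known. All member probe sets are reported. Named beside them are the 4 genes most correlated with Igf2, Peg3 and H19 over the lung arrays and up to 4 genes of each list with the smallest adjusted p past the threshold, each gene by its brightest probe set. The comparisons of oxygen levels at 2 h and 6 h came after the values were known.

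Precision is limited by the number of arrays. In a test on simulated data, with 200 probe sets changed, the 2 h fit in room air recovered 28% of changes of log2 1 and 70% of log2 2, and the test of a difference in the 2 h change between oxygen levels recovered 7% and 35%. Alternatives were no filter, quantile normalization, a pseudocount of 16, a floor of 1, a filter of the top 30% by median, a fit of those groups alone, the sample number as a block, room air F21 lungs as the baseline, the methods' t-test and leaving out each array. The Gapdh ratio as a covariate and array weights were chosen after seeing the data.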

Additional observations from a re-analysis of the deposited data

Results flagged for a closer look

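In 6 comparisons of birth changes all 3 newborn arrays of 1 group lay above the mean of their F21 group and all 3 of the other lay below theirs. The arrays are not paired, and a newborn group could still overlap with F21, as Mest did in room air at 2 h. Between oxygen levels at 2 h the change in room air minus that in 10% oxygen was 1.47 for Mest (92607_at; 0.38 against -1.09, limma adjusted p = 0.201) and 2.06 for Plagl1 (92502_at; 0.63 against -1.42, adjusted p = 0.206), and neither passed. Between organs at 6 h the change in room air lung minus that in liver was 1.35 for Meg3 (160172_at; 0.69 against -0.65, adjusted p = 0.33). It was -0.71 for Plagl1 (92502_at; -0.40 against 0.32, adjusted p = 0.845), and neither passed. For Igf2 it was -0.58 at 6 h (98623_g_at; -0.46 against 0.12), and for Peg3 -2.34 at 2 h (101451_at; -0.36 against 1.99). These differences of Igf2 and Peg3 were not tested.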

How the results depend on the processing

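Counts here are of member probe sets past the threshold, without Igf2 and Peg3 where birth changes are compared. With 3 arrays a group most lung calls rest on few arrays. Leaving out each array in turn gave the following counts. In room air at 2 h the single call was lost each time (0), and at 6 h it was always made (1). At 12 h the count ranged from 1 to 3, where all arrays gave 2, and at 24 h from 0 to 1, where all gave 0. In 10% oxygen the range at 2 h was 0 to 3 (1 with all arrays) and that at 6 h was 1 to 3 (2 with all). The oxygen levels differed in 1 to 3 probe sets at F21 (3 with all), in 3 to 5 at 2 h (5 with all) and in 0 to 1 at 6 h (0 with all). In liver the 2 h count was 0 to 1 (0 with all) and the 6 h count 0. Between organs at F21 it was 7 to 8 (8 with all).

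In room air at 2 h quantile normalization and no filter gave 0, and array weights and the groups compared only gave 2 (H19 and Grb10 93690_at). The unadjusted methods' t-test there called Grb10 93690_at and not H19. At 6 h array weights and the unadjusted methods' t-test gave 2. At 24 h the filter of the top 30% gave 1, the Gapdh covariate 2, array weights 4 and the unadjusted t-test 2. In 10% oxygen at 2 h array weights and the unadjusted t-test gave 0 and room air F21 lungs as the baseline 2, and at 6 h array weights and the groups compared only gave 1. Between oxygen levels the groups compared only and the unadjusted t-test gave 1 at F21, the unadjusted t-test gave 3 at 2 h, and at 6 h quantile normalization, array weights, the groups compared only and the unadjusted t-test gave 1 each. In liver at 6 h the groups compared only gave 1 and the unadjusted t-test 2. After Benjamini-Hochberg adjustment the t-test gave 0 in every lung comparison at which limma made a call. The cause was not tested.

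Sample numbers did not pair the arrays (median correlation of same-numbered arrays 0.00 in lung). With the replicate block the count was 1 at 24 h in room air (H19, adjusted p = 0.0395) and 1 at 6 h between oxygen levels (Meg3 160172_at, adjusted p = 0.0482), where it was 0 without, H19 passed at 12 h (adjusted p = 0.0443) and Igf2r did not pass at 2 h between oxygen levels (adjusted p = 0.0504). The count changed by at most 1 elsewhere. Among single results with an unadjusted p under 0.05, signs turned in 3, none past the adjusted threshold: Cdkn1c in 10% oxygen at 2 h was 0.04 against F21 lungs of room air, and with the Gapdh covariate Grb10 (93690_at) was 0.11 between oxygen levels at F21 and Cdkn1c -0.08 at 6 h. The cause was not tested.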
